A study of Mus musculus with 3 samples.

Results

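The transcripts of 9 genes of the dual-specificity phosphatase (DUSP) family were examined for crosslinks in a study of the RNA-binding protein ZFP36L1 in mouse thymocytes. They are Dusp1, Dusp2, Dusp4, Dusp5, Dusp6, Dusp7, Dusp10, Dusp11 and Dusp16, defined by gene name and chosen with earlier results of these data known. Every listed position with one of these names was taken, whatever its segment label. They make up 9 of 12541 protein-coding genes and 316 of 462392 positions in the deposited crosslink list, with a summed count of 594 out of 814493. The study used individual-nucleotide resolution crosslinking and immunoprecipitation (iCLIP), in which ultraviolet light joins a protein to the RNA it touches and the cDNA end marks the place to the base. Total naive thymocytes of C57BL/6JBabr mice were irradiated with 300 mJ/cm2, and complexes were precipitated with an antibody named Brf1/2. Whether a listed crosslink is of ZFP36L1, of its relative ZFP36L2 or background from neither could not be told from the list. The libraries were 1 of DCKO cells, which are a double conditional knockout of Zfp36l1 and Zfp36l2, and 2 of WT cells, from independent experiments. The labels name no Cre driver for the knockout, nor the number or age of the mice.

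The list gives 1 count per position and does not name the library a count came from. DCKO and WT binding could therefore not be compared, no value below has a replicate error, and no test between groups was possible. Intervals are 95% Wilson intervals and cover counting error only. They treat positions as independent, which positions close together are not. A site is a position that the authors' deposited table gives a false discovery rate (FDR) below 0.05, which held for 141986 positions. Of 12 thymocyte marker genes, 12 had listed positions and 10 had a 3′ UTR site, among them Rag1 with 132 sites. Of 5 B cell, 5 myeloid and 4 erythroid markers, 4, 3 and 2 had a listed position and none had a 3′ UTR site. Of 5 thymic epithelial and 4 stromal markers, 4 and 3 had a listed position, and only 1 and 2 had a 3′ UTR site. These were epithelial Epcam with 4 sites, and stromal Pecam1 with 8 and Col1a1 with 2. Over all labels Pecam1 had 60 sites among 189 positions, and epithelial Krt8 and myeloid Itgam had 1 site each. No B cell or erythroid marker had a site under any label. The part of such cells in the phosphatase counts was not tested.

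Dual-specificity phosphatases remove phosphate from both tyrosine and serine or threonine residues, and those called MAP kinase phosphatases switch off ERK, JNK and p38 in this way. Dusp1, Dusp2, Dusp4 and Dusp5 encode inducible nuclear enzymes, Dusp6 and Dusp7 encode cytoplasmic enzymes that act on ERK, and Dusp10 and Dusp16 encode enzymes that prefer JNK and p38. Dusp11 belongs to the family by fold but acts on RNA 5′ ends, not on MAP kinases. ZFP36L1 and its relatives ZFP36 and ZFP36L2 bind AU-rich elements in 3′ UTRs, of which TATTTA is a core in DNA letters, and recruit the machinery that removes the poly(A) tail and degrades the mRNA.

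The 114 sites fall into 27 runs, and the 29 nt around the strongest site hold an ATTTA in 8 of these and none in 19. Of the runs, 11 are printed: 6 with ATTTA, since the results for Dusp1, Dusp2, Dusp11 and Dusp16 turn on it, and 5 without. Each is 29 nt long on the transcript's strand, 5′ to 3′, from the RefSeq genome sequence of GRCm38, with the site at base 15 and every ATTTA in capitals. A copy preceded by t is a TATTTA. The Dusp5 sequence is coding, the Dusp16 sequence is intronic and the others lie in annotated 3′ UTRs.
Dusp1, chr17:26505868-26505896, minus strand, count 10: ttttacctttATTTAtttttgtgtaggtc
Dusp1, chr17:26505683-26505711, minus strand, count 6: tcgacagttgtatgtttgtttATTTAtga
Dusp2, chr2:127338234-127338262, plus strand, count 6: gttcaactgacATTTAacgctctctcccc
Dusp11, chr6:85943560-85943588, minus strand, count 6: ggtacctctggcctttcttttATTTAttt
Dusp11, chr6:85944663-85944691, minus strand, count 4: ttaattatctgtttttatttttATTTAac
Dusp7, chr9:106374363-106374391, plus strand, count 7: ttcttttcttgtcttttcttttcttttct
Dusp2, chr2:127338165-127338193, plus strand, count 2: acggacatctgacttttgtgtgtgtgtgt
Dusp10, chr1:184074670-184074698, plus strand, count 4: ctttctctctttttttttaaggttgggag
Dusp11, chr6:85945971-85945999, minus strand, count 3: ctatgtattttcctccttttttttttttt
Dusp5, chr19:53529619-53529647, plus strand, count 2: aggagagcgccgcgcgcgtcgtgctcacc
Dusp16, chr6:134753784-134753812, minus strand, count 2: tttATTTATTTATTTAttttttctgtttt

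Of the 9 genes, 7 had at least 1 site under any label, against 63.6% of all protein-coding genes. Dusp4 and Dusp6 had none. Together the genes held 114 sites among their 316 positions, against 30.7% of positions over the whole list, with a summed count of 280. A site labelled 3′ UTR was found in 4 of the 9 genes, against 17.7% of all protein-coding genes, and a listed 3′ UTR position of any FDR in 6, against 45.9%. An ORF site was present in 3 genes, against 13.1% of all, and an intron site also in 3, against 55.6%. No gene had a site labelled 5′ UTR, a class found in 1.13% of all genes. These are counts over 9 genes chosen with earlier results known, and they were not tested.

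The genes differed in where their counts lay. Dusp1 carried 29 sites with a summed count of 90, all labelled ORF. Dusp2 carried 13 sites with a count of 38 and Dusp7 carried 2 sites with a count of 11, all labelled 3′ UTR. In Dusp11, 18 sites with a count of 39 were labelled 3′ UTR, 7 with a count of 18 ORF and 10 with a count of 20 intron. Dusp10 had 4 sites with a count of 9 in its 3′ UTR and 14 with a count of 25 in introns. Dusp16 had 15 sites with a count of 26, all intronic, and Dusp5 had 2 ORF sites with a count of 4. In the plot of counts by label, the sites of Dusp1, Dusp2, Dusp5, Dusp7 and Dusp16 thus stand under 1 label each, and those of Dusp10 and Dusp11 under several.

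**Figure D1:**
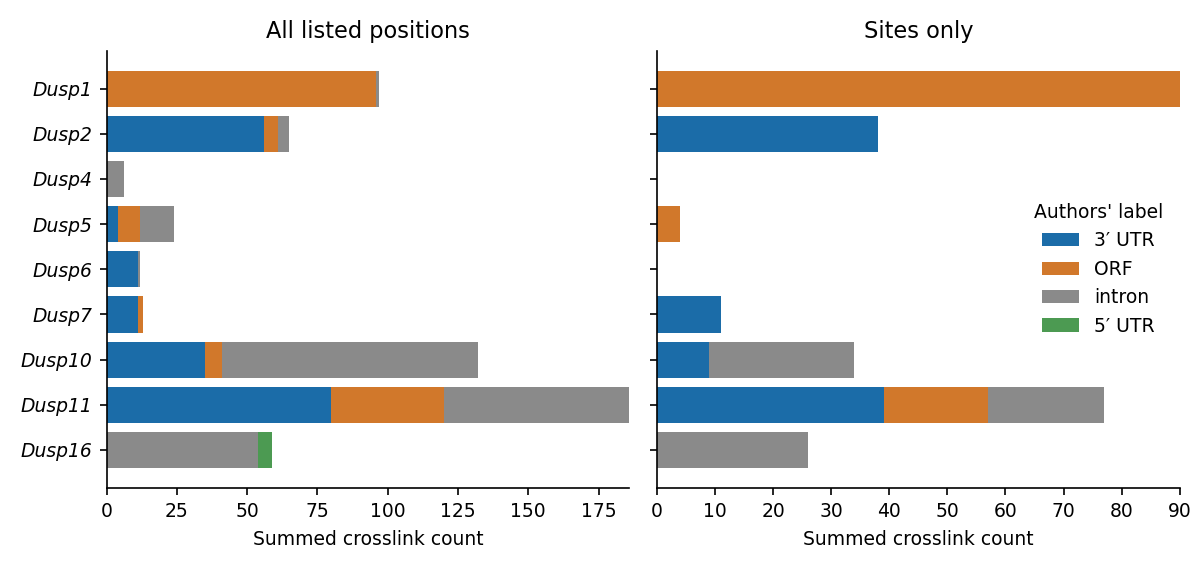
Summed crosslink count (horizontal axis) of each of the 9 genes over all listed positions (left) and over sites alone (right), coloured by the authors' segment label. Dusp1 reaches 90 over sites with ORF labels alone, whereas Dusp16 reaches 26 in introns alone.

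Most values were small. A count of 1 stood at 36.7% of the 316 phosphatase positions, against 50.5% of all positions, and a count of 2 at 52.9%, against 44.04%. A count of 3 or more stood at 33 phosphatase positions, or 10.4%, against 5.45% of all. Counts were even at 190 of the 316 positions, most of them counts of 2, and the share over all positions was not computed. The highest count was 10, in Dusp1.

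Dusp1 (MKP-1, the inducible nuclear phosphatase of p38, JNK and ERK; ENSMUSG00000024190.7, minus strand of chromosome 17) had 33 ORF-labelled positions with a summed count of 96 and 1 intronic position with a count of 1. All 33 ORF-labelled positions, and so all 29 sites, lay downstream of the stop codon, inside the 690 nt 3′ UTR of GENCODE vM21. RefSeq, with a 3′ UTR of 689 nt, placed the same 33 positions and 29 sites in the 3′ UTR. Dusp1 therefore has no 3′ UTR signal under the authors' label and the highest of the 9 genes under the reference annotations. Such differences were found in other genes too: 34.2% (33.03 to 35.4) of 6311 ORF-labelled sites of all matched genes lay in an annotated 3′ UTR. Over the 9 genes the share was 76.3% (60.8 to 87.01) of 38 ORF-labelled sites, every one of them in Dusp1.

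The Dusp1 sites fell into 3 groups along the 3′ UTR. The central group, chr17:26505865-26505914, held 16 sites and a summed count of 56 over 17 positions, which is 57.7% of the counts named Dusp1. Its strongest position lay 398 nt after the stop codon with a count of 10, on the last base of a TATTTA, and its neighbour at 399 nt had a count of 7. The distal group, chr17:26505682-26505704, held 10 sites with a summed count of 25, and its strongest position, with a count of 6 at 583 nt, lay 6 nt before the first base of a TATTTA. The proximal group, chr17:26506191-26506209, had 3 sites with counts of 4, 4 and 2 at 71, 74 and 89 nt. It precedes a pair of overlapping TATTTA copies that start at 104 and 108 nt. The central and distal groups thus each spanned 1 TATTTA copy. In the proximal group only the site at 89 nt, with a count of 2, had a copy within 20 nt. The strongest position of that group, with a count of 4 at 74 nt, lay 30 nt before the first base of the nearest copy. Of the 4 copies in this 3′ UTR, 3 had a site within 20 nt. Over all annotated 3′ UTRs, 8.95% of 15347 copies had one, but only 20.7% of matched genes have any site in that segment.

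Of the 29 Dusp1 sites, 26 had a whole TATTTA within 20 nt on either side, or 89.7% (73.6 to 96.4), with 80 of the 90 counts. For comparison, 16.2% of the bases of this 3′ UTR lie that close to a copy. Over all genes, 28.1% (27.5 to 28.8) of 18330 sites in annotated 3′ UTRs had a TATTTA that close, where 2.35% of 3′ UTR bases do. That base share is over 11632 genes with a listed position, with or without a 3′ UTR site. Sites of 1 group share the same copy, so the 26 sites are not independent. The longer form TTATTTATT lay within 20 nt of 15 of the 29 sites, or 51.7% (34.4 to 68.6), against 8.01% over all genes. Of the ORF-labelled Dusp1 positions, 87.9% were sites, against 37.8% of 3′ UTR-labelled and 19.4% of ORF-labelled positions in all genes. The count summed within 15 nt, the authors' extended value, was at least 6 at the sites and at most 3 at the 4 positions outside the threshold.

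Dusp2 (PAC-1, a nuclear MAP kinase phosphatase of lymphocytes; ENSMUSG00000027368.6, chromosome 2) had 21 positions in its 581 nt 3′ UTR, with a summed count of 56, and 13 of them were sites. That is 61.9% of its 3′ UTR positions, against 37.8% in all genes. The main group, chr2:127338244-127338258, held 9 sites and a count of 30 in 15 nt, or 46.2% of the counts named Dusp2, with counts of 6 at 453 and 458 nt after the stop codon. It lies over the ATTTA shown above, which is preceded by c and so is no TATTTA. The only TATTTA of this 3′ UTR starts 67 nt downstream of the strongest position, and 2 positions near it were listed, neither of which passed the threshold.

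None of the 13 Dusp2 sites therefore had a TATTTA within 20 nt (0%, up to 22.8), whereas 9, or 69.2% (42.4 to 87.3), had the shorter ATTTA. Over all genes 35.8% of sites in annotated 3′ UTRs had an ATTTA that close. The other Dusp2 group, chr2:127338170-127338200, had 4 sites with a summed count of 8 in a stretch of GT repeats without either motif. The position 533 nt after the stop codon had a count of 4 and was not a site. The extended value was at least 10 at the Dusp2 sites and at most 6 at the 8 positions outside the threshold.

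Dusp11 (PIR1, the RNA 5′ phosphatase; ENSMUSG00000030002.15, minus strand of chromosome 6) had the longest 3′ UTR of the 9 genes, 5337 nt, with 9 TATTTA copies, and 45 listed positions in it with a summed count of 80. Of these positions 18 were sites. They formed 4 groups. The group at chr6:85943560-85943575 had 6 sites and a count of 16, with its strongest position of count 6 lying 6 nt before the first of 4 overlapping TATTTA copies. The group at chr6:85944673-85944677 had 3 sites and a count of 7, with its strongest position of count 4 lying 7 nt before another copy. The group at chr6:85945972-85945987 had 6 sites and a count of 11, mainly around the start of a run of T. Its strongest position, of count 3, was a C and had no TATTTA within 100 nt. The group at chr6:85942327-85942341, 59 nt before the 3′ UTR's end at its strongest position, had 3 sites and a count of 5 in C-rich sequence.

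Of the 18 Dusp11 sites in the 3′ UTR, 9 had a TATTTA within 20 nt, a share with an interval of 29.03% to 70.97%, and they carried 23 of the 39 counts. Of its 9 copies, 8 had a listed position within 20 nt and 5 had a site. An intron group of Dusp11, chr6:85951990-85952014, held 3 sites. The 29 nt around its strongest site occur at 342 places in the genome, whereas the 50 nt downstream of that site occur at 1. Within a gene and label the threshold follows the count summed within 15 nt, so sites stand in groups by construction in the maps of the 3′ UTRs. Between genes and labels it did not follow that count alone. The lowest extended value of a site was 6 in Dusp1 under the ORF label. Under the 3′ UTR label it was 10 in Dusp2, 9 in Dusp10 and 5 in Dusp11.

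**Figure D2:**
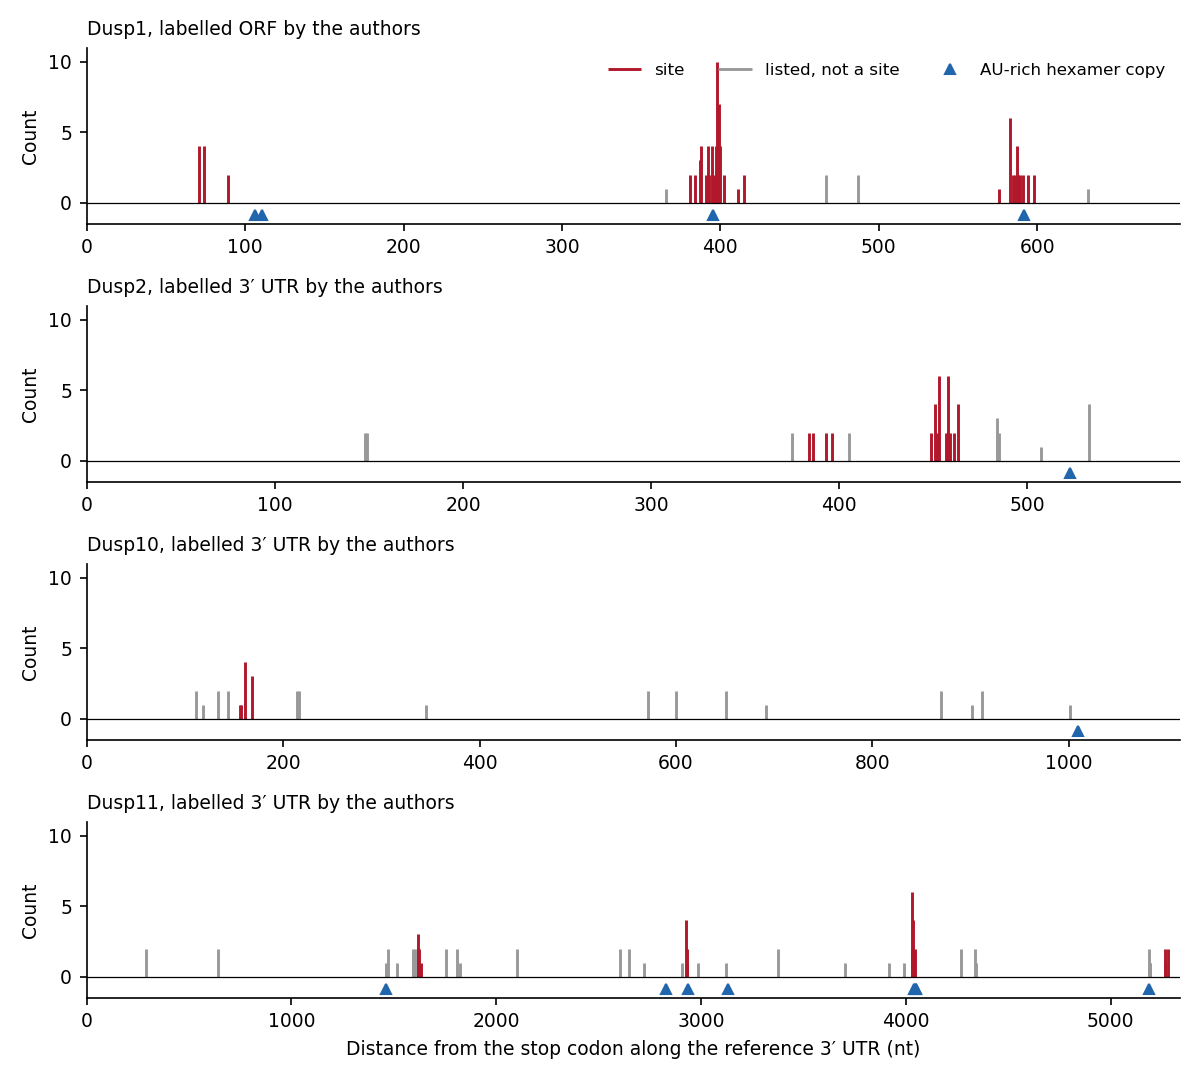
Count (vertical axis) at each listed position along the reference 3′ UTR, in nt after the stop codon (horizontal axis), for 4 genes. Red lines are sites, grey lines are positions outside the threshold and triangles mark copies of TATTTA. The Dusp1 sites stand in 3 groups, the central and distal over a triangle and the proximal before a pair of them. The Dusp2 sites lie away from the triangle.

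Dusp10 (MKP-5, a phosphatase of JNK and p38; ENSMUSG00000039384.8, chromosome 1) had 20 positions and a summed count of 35 in its 1113 nt 3′ UTR, of which 4 were sites. They lay together at 156 to 168 nt after the stop codon, with counts of 1, 1, 4 and 3, within chr1:184074657-184074691. The last, of count 3, was a G just after a run of C and T that held the others. No ATTTA lay within 20 nt of any of the 4 sites. Its 1 TATTTA, which starts at 1007 nt, had a position of count 1 nearby and no site. In the introns of Dusp10, 59 positions had a summed count of 91, and 14 of them were sites in 6 small groups with summed counts of 3 to 7. None of the 14 had a TATTTA within 20 nt (0%, up to 21.5), against 21.8% of 91389 intron sites of all genes. The share of intron positions that were sites is 28.8% over all genes.

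Dusp7 (MKP-X, a cytoplasmic ERK phosphatase; ENSMUSG00000053716.9, chromosome 9) had only 2 positions in its 1778 nt 3′ UTR, with counts of 7 and 4, and both were sites. They lie 5 nt apart, 431 nt after the stop codon at the stronger one, in repeats of TTTTC. The 3′ UTR has neither TATTTA nor ATTTA. The printed 29 nt occur at 3 places in the genome, whereas the 50 nt downstream of the site occur at 1.

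Dusp4, Dusp5 and Dusp6, for MKP-2, a nuclear ERK phosphatase and MKP-3, had no site in the 3′ UTR. Dusp4 had 4 intronic positions with a summed count of 6 and no other. Dusp6 had 7 positions in its 3′ UTR with a summed count of 11, none above a count of 2, and 1 intronic position. Dusp5 had 3 positions in its 3′ UTR with a summed count of 4, 7 in introns and 4 in coding sequence, of which 2 were sites with counts of 2 each at chr19:53529633-53529638. The 3′ UTRs of these 3 genes, of 1111, 1109 and 1190 nt, hold no TATTTA and 2, 1 and 1 ATTTA. Of 11632 matched genes, 52.5% have a TATTTA in the 3′ UTR. Transcript levels were not measured in these data, so few counts at a weakly expressed transcript and few counts for want of binding cannot be told apart.

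Dusp16 (MKP-7, a phosphatase of JNK and p38; ENSMUSG00000030203.17, minus strand of chromosome 6) had motif copies in its 3′ UTR without listed positions. Its annotated 3′ UTRs, 4642 nt in all, hold 4 TATTTA and 12 ATTTA copies, and 0 positions were listed in them. Instead 35 positions with a summed count of 54 lay in introns, and 15 of these were sites. The group at chr6:134753786-134753819 held 13 sites with a summed count of 23 and none above a count of 2, in a tandem repeat with 12 TATTTA copies within 100 nt of the strongest position. The other 2 sites lay at chr6:134783725-134783731, beside 5 copies. All 15 sites had a TATTTA within 20 nt (100%, 79.6 to 100), and all 15 lay in sequence that the genome marks as repeat. The 15 are not independent, since sites of 1 group share motif copies. The printed 29 nt of the first group occur at 2 places in the genome and the 50 nt downstream at 1. The 3 positions labelled 5′ UTR, with a summed count of 5, held no site, in a class where 21.1% of positions are sites.

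Only Dusp1, Dusp5 and Dusp11 had sites labelled ORF, and they differed in what the annotation holds there. The 29 Dusp1 sites lay in the 3′ UTR, as above, and both Dusp5 sites in coding sequence. Of the 7 Dusp11 sites, 4 with a count of 11 lay in an intron at chr6:85953506-85953515, 12 to 21 nt upstream of a coding exon, and 3 with a count of 7 lay at chr6:85958584-85958598, the last 15 bases of a coding exon. None of these 9 sites of Dusp5 and Dusp11 had a TATTTA within 20 nt. Read over all 38 ORF-labelled sites, 68.4% (52.5 to 80.9) had a TATTTA that close, against 15.9% of 6719 in all genes, and all 26 such sites were those of Dusp1.

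Under the 3′ UTR label, which leaves out Dusp1, 9 of 37 sites had a TATTTA within 20 nt, all in Dusp11. The share was 24.3% (13.4 to 40.1), against 28.9% (28.2 to 29.5) of 16591 sites in all genes. The interval of the phosphatases includes the value of all genes, but it treats sites as independent. Since sites of 1 group share motif copies, it cannot decide whether the shares differ. Under the reference 3′ UTR, which takes Dusp1 in, 35 of 66 sites did, or 53.03% (41.2 to 64.6), against 28.1% in all genes. Without Dusp1 the share was again 24.3%, so 1 gene decided this value. ATTTA lay within 20 nt of 66.7% (54.7 to 76.8) of the 66 sites, against 35.8% in all genes. The listed base was a T at 74.2% (62.6 to 83.3) of the 66 sites, against 65.4% in all genes. Repeat-marked sequence held 78.8% of the 66 sites, against 58.5% in all genes, and within the phosphatases it held 24 of 29 Dusp1 sites but 4 of 13 Dusp2 sites. The part of repeats in these shares was not tested.

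**Figure D3:**
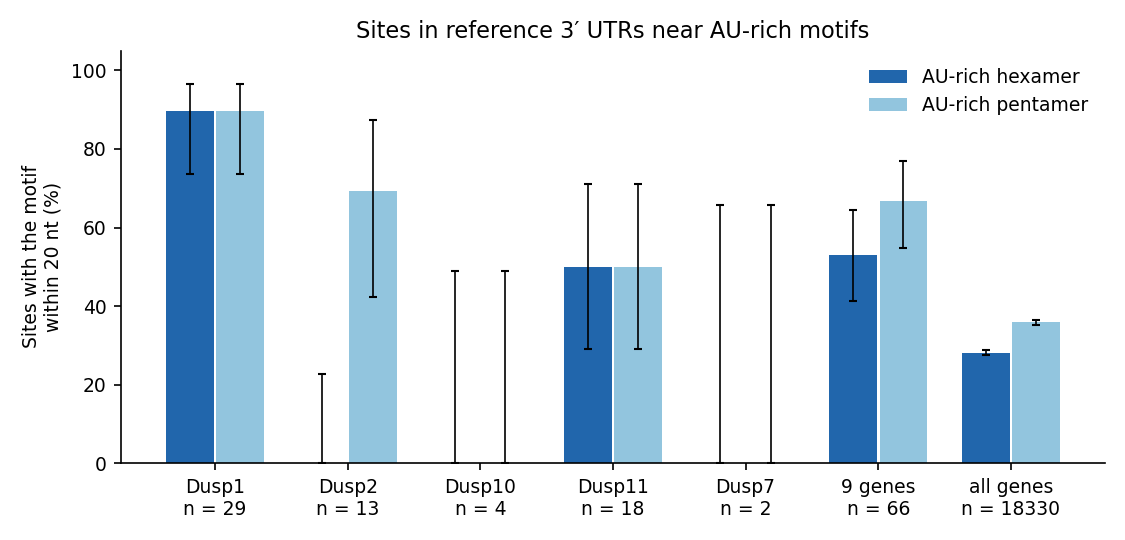
Percent of sites in reference 3′ UTRs with TATTTA (hexamer, dark) or ATTTA (pentamer, light) within 20 nt, for each phosphatase gene with such sites, for the 9 genes together and for all genes. Bars are shares and lines 95% Wilson intervals. Dusp1 reaches 89.7% for both motifs, Dusp2 reaches 69.2% for the pentamer and 0% for the hexamer.

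The place of a site relative to its nearest TATTTA was compared for the 35 sites in reference 3′ UTRs that had one. Of these, 20 lay before the motif, 10 within it and 5 after it, or 57.1%, 28.6% and 14.3%. Over all genes 49.8% of 5156 such sites lay before, 28.6% within and 21.6% after. Dusp1 had 13 before, 8 within and 5 after, and its highest summed counts, 12 and 9, stood 5 nt after and 6 nt before the motif's first base. Dusp11 had 7 before, 2 within and none after, with its highest summed count, 8, also 6 nt before. Sites of 1 group share a copy, so these are descriptions of 5 groups. The sources used here leave unsaid whether the listed base is the crosslinked one or its neighbour.

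**Figure D4:**
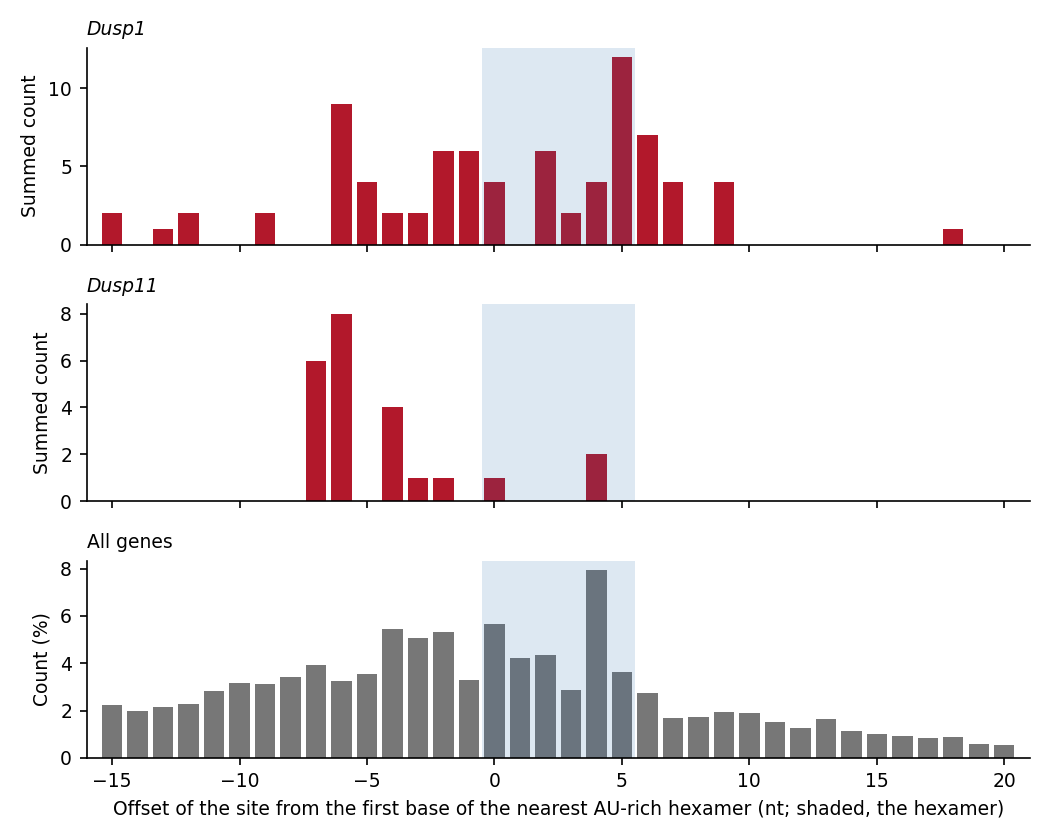
Summed count of sites (percent of count for all genes) by distance from the first base of the nearest TATTTA, in nt, with the motif's 6 bases shaded. Dusp1 has peaks 6 nt before the first base and 5 nt after it, Dusp11 mainly before it, and all genes a broad profile from before to within the motif.

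Per length of 3′ UTR, Dusp1 had 42.03 sites per kb and Dusp2 had 22.4, above Dusp10 with 3.59, Dusp11 with 3.37 and Dusp7 with 1.13. The median was 2.21 sites per kb over the 2421 genes with a site in the reference 3′ UTR, which are 20.7% of the genes tested. Dusp1 exceeded 99.01% of these genes, Dusp2 96.8%, Dusp10 64.6%, Dusp11 62.8% and Dusp7 29.7%. The extended value that a site needed differed between genes and labels, and Dusp1 was scored under the ORF label. These densities therefore do not count the same signal in each gene. Counting every listed position, the densities were 47.8 per kb for Dusp1, 36.1 for Dusp2, 17.97 for Dusp10, 8.43 for Dusp11 and 1.13 for Dusp7. The order by sites per kb differs from that by summed count, in which Dusp1 with 90 was at rank 73, Dusp11 with 39 at rank 231 and Dusp2 with 38 at rank 237, since the 3′ UTR of Dusp11 is longer. By summed count Dusp11 and Dusp2 were 1 apart. Under the authors' own 3′ UTR label Dusp11 was at rank 213 of 2222 genes, with the median gene at a summed count of 8. Its neighbours in that order were Ppp1r18 and Troap at 40, and Vamp1, Elk4, Rictor and Prr12 at the same 39.

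**Figure D5:**
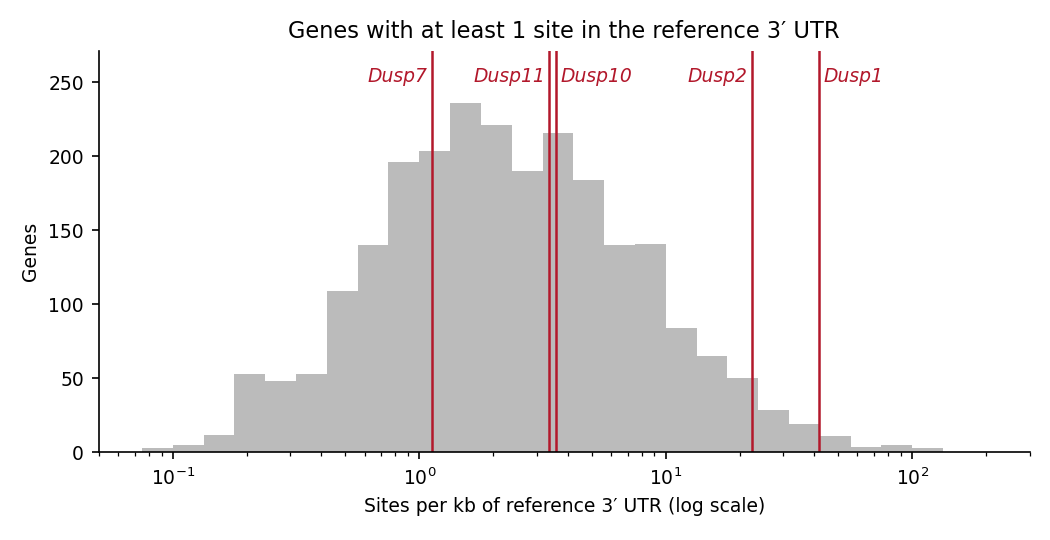
Number of genes (vertical axis) by sites per kb of reference 3′ UTR (horizontal axis, log scale), over 2421 genes with at least 1 such site. Red lines mark Dusp1 at 42.03, Dusp2 at 22.4, Dusp10 at 3.59, Dusp11 at 3.37 and Dusp7 at 1.13 sites per kb.

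Other genes of the pathway give the setting. Of 23 further names of dual-specificity phosphatases searched, 1 of them misspelt, 13 had a listed position and 2 a 3′ UTR site, which were the slingshot phosphatases of cofilin, Ssh1 with 6 sites and Ssh2 with 3, none with a TATTTA within 20 nt. The counts of that list lay mainly in introns, with 84 intron sites, of which Ssh2 had 39 and the mRNA capping enzyme Rngtt had 35. In the MAP kinase cascade 10 of 32 genes had a 3′ UTR site. The highest summed counts were those of the kinase genes Map3k1 with 33 sites and 79 counts and Map2k7 with 27 sites and 56 counts, and of the Ras activator Rasgrp1 with 19 sites and 45 counts. A TATTTA lay within 20 nt of 51.9% of the Map2k7 sites, of none of the Map3k1 sites and of 22.7% of the 110 sites of the whole list. Of 18 other negative regulators of MAP kinases, 7 had a 3′ UTR site, led by the Ras GTPase activator Rasa2 with 20 counts, the phosphatase subunit Ppp2ca with 14 and the receptor signalling inhibitor Spry1 with 7. Of the 28 sites of that list, 7 had a TATTTA within 20 nt.

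Among 21 early genes that MAP kinase signalling induces, 10 had a 3′ UTR site, and 48.8% of their 125 sites had a TATTTA within 20 nt, against 28.9% of 3′ UTR-labelled sites in all genes. Btg2, an antiproliferative gene, had 37 sites with a summed count of 107, the nuclear receptor gene Nr4a1 had 33 with 68, and the transcription factor gene Klf6 had 13 with 36. Dusp1, itself an early gene, had 29 sites with 90 counts under the reference annotation. These counts stand beside the 17.7% of all protein-coding genes with a 3′ UTR site, and no list was tested against it.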

How the data were processed

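Crosslink positions came from a single list deposited by the authors with 1 DCKO and 2 WT iCLIP libraries, and which of them entered it is unknown. Reads were 100 nt from single ends, with barcodes of 3 known and 4 random bases, per the labels' protocols. Per the submitters' processing notes, which give no versions, the tool was Bowtie and the build GRCm38. The deposited count and its sum within 15 nt (extended value) are whole numbers signed by strand and are treated as a score. The deposited FDR is also a score, with a highest value of 5.53. The deposited p-value was not used. The authors' steps behind these values and the depth per library are not given in the sources used.

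The planned comparison of DCKO with WT needs a library column and was not made. Positions count from 0: read so, 7 3′ UTR-labelled positions fell on a first 3′ UTR base and 0 on a last coding base, against 4 and 7 if counted from 1. Coordinates in the text count from 1.

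Names were matched to GENCODE vM21 protein-coding symbols (11719 of 12541, all 9 phosphatases), and 3′ UTRs are the union over transcripts without the stop codon. Runs join positions at most 15 nt apart. Motifs were searched on the transcript's strand in GRCm38, whole within the window. On simulated data, 398 of 398 motif flags were recovered. Python 3.11.15, pandas 2.3.3 and pysam 0.24.0 were used.

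The 9 genes, the gene lists and the settings were chosen with earlier results of these data known. All 9 genes are named. Of each list, up to 3 genes with the highest summed 3′ UTR site count are named, with the 3 genes above and below Dusp11 in that order. In the list of further phosphatases, Styxl1 was misspelt as Stxl1, so it was not looked up. Alternatives were the FDR threshold, a minimum count, the annotation, the motif and the window.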

Additional observations from a re-analysis of the deposited data

How the results depend on the processing

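The number of phosphatase genes with a 3′ UTR site was 4, and lay between 4 and 6 under every setting run. Values that moved did so with the threshold, the annotation, the motif or the window. The 37 sites labelled 3′ UTR became 98 with all listed positions, 12 with a count of at least 3, and 66 with the GENCODE or RefSeq 3′ UTR, and their summed count of 97 became 197, 55 and, with GENCODE, 187. The 38 ORF-labelled sites became 64 with all positions and 15 with a count of at least 3. The share of 3′ UTR-labelled sites near TATTTA was 24.3%, against 28.9% in all genes. It lay above all genes with ATTTA (48.65% against 36.4%), with TTATTTATT (16.2% against 7.87%), with all positions (18.4% against 15.4%) and with the GENCODE segment (53.03% against 28.1%). Below all genes it lay within 10 nt (13.5% against 17.3%), within 50 nt (24.3% against 40.04%), with TATTTAT (16.2% against 21.4%) and weighted by count (23.7% against 34.6%). Its direction thus depends on the setting. The share of ORF-labelled sites in a GENCODE 3′ UTR, 76.3%, became 51.56% with all positions. Of 82 values for single genes, 14 moved, among them the Dusp11 share near TATTTA, to 27.78% within 10 nt, and the Dusp2 share, 0% with TATTTA and 69.2% with ATTTA. RefSeq and the setting without Dusp1 were chosen after seeing the data.

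No paired analysis was possible because the list names no library. For the same reason the planned settings that leave out a WT library were not run. Most positions hold a count of 1 or 2, so the order of Dusp7, Dusp10 and Dusp11, which rests on few sites, is a description. The depth per library is unknown, and signal in the DCKO library could not be set apart.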
